A study of Rattus norvegicus with 12 samples.

Results

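Transcripts of 8 fatty acid desaturases and elongases were followed through 12 rat liver RNA-seq libraries: Scd, Scd2, Fads1 and Fads2 among the desaturases, and Elovl1, Elovl2, Elovl5 and Elovl6 among the elongases. The genes were taken by symbol from the 40154 genes of the deposited table, and all 8 passed the filter on low counts that left 15916 genes for testing. The livers came from Sprague Dawley rats in 4 groups of 3 libraries. Control rats ate a normal diet, Control+SAMC rats a normal diet with S-allylmercaptocysteine (SAMC), HFD rats a high fat diet, and HFD+SAMC rats a high fat diet with SAMC, a water-soluble organosulfur compound of aged garlic. The series concerns non-alcoholic fatty liver disease and what SAMC does in it. Dose, duration, diet composition, sex and age are not in the labels, nor is it stated whether each library is a separate animal, so a p-value here covers the spread among these libraries, some of which may be technical.

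Desaturases place double bonds in fatty acyl-CoA chains, and elongases catalyse the first step of the cycle that lengthens the chains in the endoplasmic reticulum. Stearoyl-CoA desaturases (Scd, Scd2) turn saturated into monounsaturated fatty acids, which liver uses for triglycerides and cholesterol esters. Fads2 and Fads1, the delta-6 and delta-5 desaturases, act in turn with Elovl5 and Elovl2 to make long polyunsaturated fatty acids from dietary precursors, while Elovl6 lengthens palmitate and Elovl1 makes very long saturated chains. In liver, several of these genes are known targets of the sterol regulatory element binding proteins, and polyunsaturated fatty acids of the diet are known to lower their transcripts.

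The desaturase genes lie in neighbouring pairs on chromosome 1. In the deposited table, for which no genome build is named, Scd spans 264159966 to 264173061 on the minus strand and Scd2 spans 264059374 to 264072433 on the plus strand, 87.5 kb apart. Fads1 (226234034 to 226249118, plus strand) and Fads2 (225906582 to 226152568, minus strand) lie 81.5 kb apart. Elovl1 lies on chromosome 5 (137255868 to 137260486), Elovl2 on chromosome 17 (21382461 to 21422413), Elovl5 on chromosome 8 (85220941 to 85287449) and Elovl6 on chromosome 2 (234187490 to 234296124). The listed span of Fads2 is 246.0 kb long and overlaps 8 other genes, 4 of which passed the filter, among them the ferritin heavy chain gene Fth1 and the desaturase Fads3. The span of Elovl6 lies within that of Mcub, and a gene described as similar to it, LOC102549542, lies on the same chromosome with 40 to 404 counts per library. The strand setting of the counting is not given in the sources used here, so reads of overlapping partners may not have been told apart, and reads of near-identical copies may be split between Elovl6 and LOC102549542.

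Sequences before the annotated starts were available from RefSeq (GRCr8) for 7 of the 8 genes. In the 250 bases before each start, 4 motifs were searched on both strands: CCAAT (NF-Y box), CCGCCC (GC box), CACGTG (E-box) and TCACNCCAC (sterol response element core). The windows of Scd and Elovl1 lie wholly within the RefSeq span of their own gene, and those of Fads1, Fads2 and 1 of the 2 of Elovl2 in part. CCAAT was found in the windows of Scd2, Fads1 and Elovl5, against 34% of all 33469 windows of this length. CCGCCC was found in the windows of Fads1, Fads2 and Elovl2 (30.5% of all windows), and CACGTG in that of Elovl5 (5.59%). TCACNCCAC occurred in 0 of the 7 genes' windows and in 0.974% of all windows, which says only that these letters are not in these windows. The 3 sequences with CCAAT are shown to set side by side the stearoyl-CoA desaturase Scd2, the delta-5 desaturase Fads1, and Elovl5, the most abundant elongase. Capitals mark the matches (ATTGG is CCAAT and GGGCGG is CCGCCC read on the other strand), and only bases outside the gene's RefSeq span are printed, on the gene's strand, for chr1:253118127-253118376 (Scd2, plus strand), chr1:216252442-216252604 (Fads1, plus strand) and chr8:87670914-87671163 (Elovl5, plus strand).
Scd2: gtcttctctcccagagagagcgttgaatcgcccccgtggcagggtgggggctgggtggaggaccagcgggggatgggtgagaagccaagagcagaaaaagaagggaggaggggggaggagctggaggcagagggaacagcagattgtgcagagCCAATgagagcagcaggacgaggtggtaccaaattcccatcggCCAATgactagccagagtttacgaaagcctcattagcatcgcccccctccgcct
Fads1: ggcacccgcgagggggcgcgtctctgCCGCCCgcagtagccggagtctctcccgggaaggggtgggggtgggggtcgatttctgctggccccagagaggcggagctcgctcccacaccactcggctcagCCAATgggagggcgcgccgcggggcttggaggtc
Elovl5: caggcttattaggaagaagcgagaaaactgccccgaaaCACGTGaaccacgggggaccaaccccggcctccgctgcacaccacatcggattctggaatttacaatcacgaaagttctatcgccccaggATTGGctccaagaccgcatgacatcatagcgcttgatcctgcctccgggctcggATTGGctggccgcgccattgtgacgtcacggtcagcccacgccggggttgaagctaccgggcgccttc
In Scd2 the CCAAT matches began 97 and 54 bases before the start, in Fads1 1 match began 121 bases before it, and in Elovl5 the matches began 122 and 68 bases before it. A match describes letters and was not tested as a binding site.

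Libraries held 45680738 to 61937544 counts in all. Albumin took 7.32% to 21.8% of counts, and 12 of 12 hepatocyte markers were measured, with summed levels of 164142 to 369509 CPM in Control, 161818 to 238111 in Control+SAMC, 131533 to 175114 in HFD and 145772 to 172042 in HFD+SAMC. CPM are counts scaled to a library of 1000000 counts, after correction of the library size by TMM (trimmed mean of M-values). Low levels of the fibrinogen gene Fga, 3378 to 3822 CPM, marked 4 libraries (HFD replicates 2 and 3, Control replicate 2 and Control+SAMC replicate 1), where the remaining 8 held 8221 to 18523 CPM. The muscle actin gene Acta1 had 28411 counts in HFD+SAMC replicate 3 and at most 8 elsewhere. The deposited RPKM of 1 gene implied that 2 length tables were used, giving it 3377 bp in 2 groups (set 1: Control, HFD+SAMC) and 4432 bp in the other two (set 2: HFD, Control+SAMC). Each comparison of neighbouring groups therefore crosses the sets, the effects of diet and of SAMC averaged over the other factor are balanced over them, and the set cannot be told apart from the interaction of diet and SAMC.

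Scd, the main stearoyl-CoA desaturase of liver, fell on the high fat diet, and it was the member with the largest fold difference between the diets averaged over SAMC. The Control libraries held 58.1, 268 and 168 CPM of Scd and the Control+SAMC libraries 105, 99.5 and 208 CPM. The HFD libraries (replicates 2, 3 and 4) held 0.665, 2.40 and 10.1 CPM and the HFD+SAMC libraries 0.355, 0.737 and 2.58 CPM. Every library of the normal diets thus lay above every library of the high fat diets, and the lowest of the former was 5.75 times the highest of the latter. Such a complete separation by diet, with the high fat libraries lower, was seen for 0.503% of the genes tested, and for Scd alone among the 8. Averaged over SAMC, the log2 fold change of the high fat diet was −6.02 ± 0.82 (SE; edgeR, adjusted p = 0.0175), a level 0.0154 times that on the normal diet. It was the 1 of 8 members past the threshold in that comparison, in which 0.421% of all genes passed and 0.182% passed with lower levels. At an unadjusted p under 0.05, 3 of 8 were lower (Scd, Fads1 and Elovl5), as were 6.29% of all genes. DESeq2 called 2 of 8, and 522 of the 16777 genes to which it gave an adjusted p. The call of Scd was lost without HFD replicate 3 (adjusted p = 0.0618), without HFD+SAMC replicate 1 (0.0511) or without HFD+SAMC replicate 2 (0.066), while the log2 fold change stayed between −7.20 and −5.75 over 17 alternatives.

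**Figure D1:**
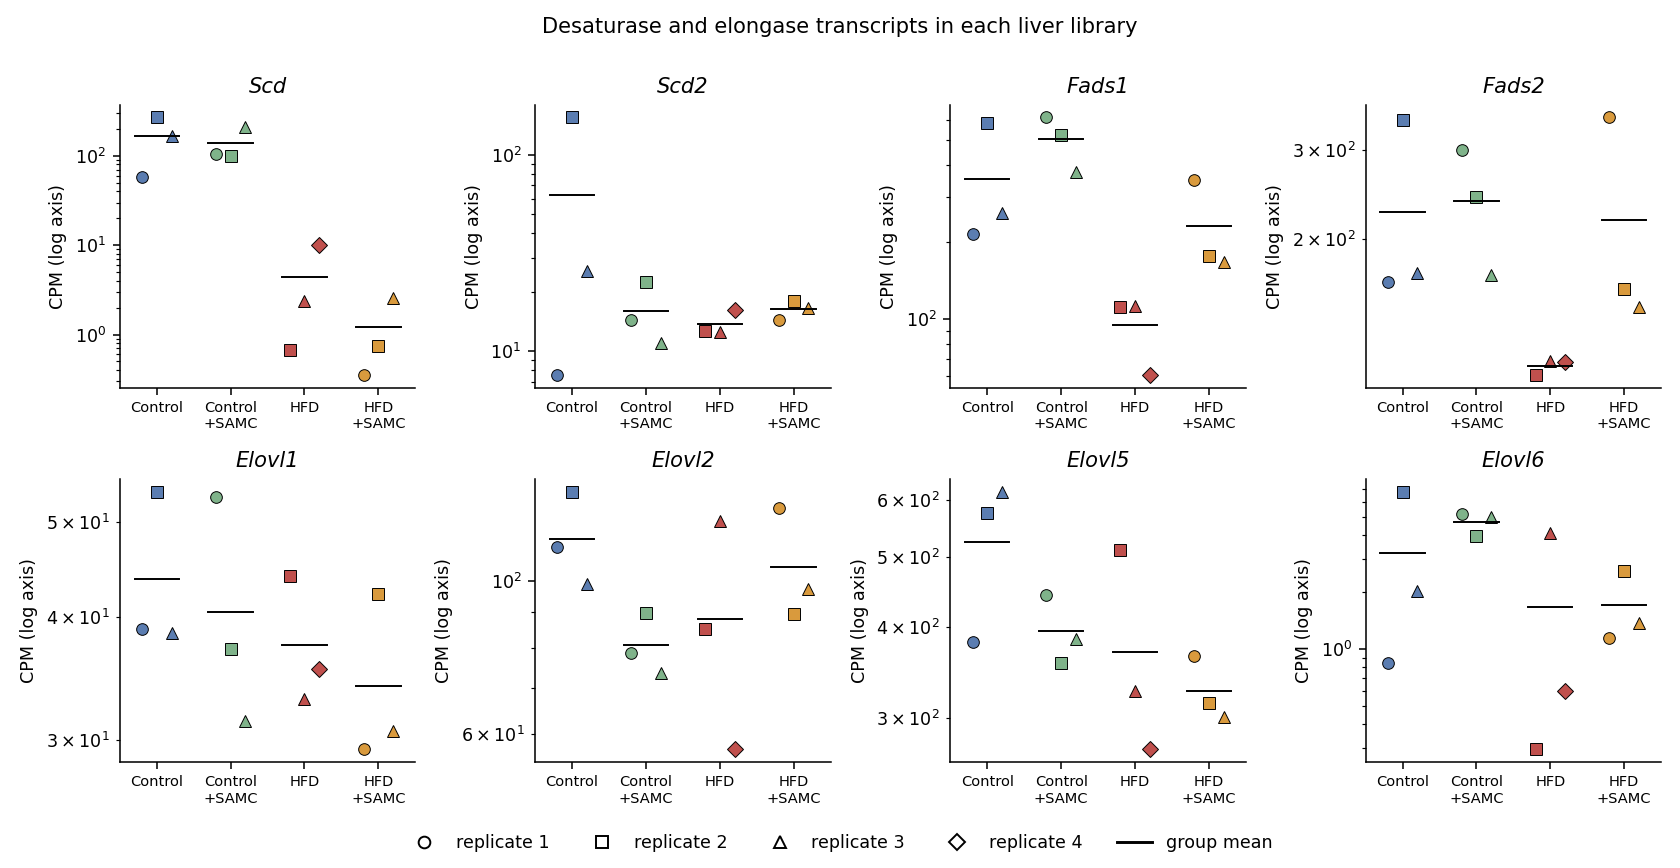
Level of each gene in CPM on a log axis (vertical) by group (horizontal), with 1 point per library shaped by its replicate number and a bar at the group mean (n = 3 libraries). Scd separates the diets in all 12 libraries, and the Scd2 mean of Control is raised by replicate 2 at 155 CPM.

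Each comparison of Scd between 2 diet groups pointed the same way and missed the threshold after adjustment over all genes. The group means were 165 ± 105 CPM (SD, n = 3) in Control, 137 ± 61.2 in Control+SAMC, 4.39 ± 5.03 in HFD and 1.23 ± 1.19 in HFD+SAMC. Fold changes on the log2 scale were −5.23 ± 1.11 in HFD against Control (edgeR, adjusted p = 0.153) and −6.81 ± 1.20 in HFD+SAMC against Control+SAMC (adjusted p = 0.0962). Within the library sets it was −7.07 ± 1.22 in HFD+SAMC against Control (adjusted p = 0.063) and −4.97 ± 1.09 in HFD against Control+SAMC (adjusted p = 0.106). DESeq2 called Scd in each of these 4 comparisons, with an adjusted p of 4.9e-05 in HFD against Control. Scd also varied within groups, by an SD of 1.95 on the log2 scale in HFD and 0.59 in Control+SAMC.

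With SAMC, Scd did not pass the test on either diet. Its log2 fold change was −0.26 ± 0.92 in Control+SAMC against Control (edgeR, adjusted p = 0.958) and −1.83 ± 1.02 in HFD+SAMC against HFD (adjusted p = 0.56), and the libraries overlapped in both. The change with SAMC on the high fat diet less that on the normal diet was −1.57 ± 1.36 (adjusted p = 0.857). Without HFD replicate 4 the value in HFD+SAMC against HFD was −0.33 and this difference −0.07. In the high fat libraries these differences rest on 23 to 540 counts of Scd, against 3049 to 10955 on the normal diet.

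Cells other than hepatocytes were also measured, since Scd is expressed in fat tissue. The 8 adipocyte markers summed to 99.4 to 218 CPM in Control, 77.7 to 192 in Control+SAMC, 120 to 185 in HFD and 133 to 191 in HFD+SAMC, ranges that overlap. Of these, Adipoq, Plin1, Lep and Retn reached at most 130, 46, 17 and 11 counts, each highest in Control replicate 3. Cidec held 2312 to 9524 counts per library and Cfd 486 to 1679. Lipe held 789 to 1493 and Fabp4 7 to 488. The 13 markers of Kupffer cells and macrophages summed to 581 to 905 CPM in Control and 948 to 1109 CPM in HFD, without overlap. Those of stellate cells (205.4 to 223 CPM in Control and 243 to 369.5 in HFD), sinusoidal endothelial cells (421 to 481 and 385 to 388) and erythroid cells (112 to 150.1 and 71.8 to 89.5) did not overlap between these groups either. Those of cholangiocytes (7.33 to 19.4 and 11.2 to 12.9) and of T and NK cells (6.17 to 11.3 and 8.42 to 14.5) overlapped. So did those of skeletal muscle (0.724 to 1.57 and 0.783 to 1.02) and the hepatocyte sums given above. Between Control+SAMC and HFD+SAMC the macrophage, stellate, endothelial and erythroid sums all overlapped. The part of these cell types in the levels of the 8 genes was not tested, and in whole liver fewer cells of a type and less RNA per cell cannot be told apart.

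Scd2, the neighbouring isoform that is known as the stearoyl-CoA desaturase of brain, did not follow Scd. Its levels were 7.60, 155 and 25.5 CPM in Control, 14.5, 22.4 and 11.0 in Control+SAMC, 12.7, 12.6 and 16.2 in HFD and 14.5, 18.0 and 16.7 in HFD+SAMC. Control replicate 2 stood far above the other 11 libraries, and the groups overlapped. The log2 fold changes of −2.18 ± 0.85 in HFD against Control (edgeR, adjusted p = 0.403) and −1.97 ± 0.84 in Control+SAMC against Control (adjusted p = 0.492) rest on that library: without it the former was −0.26 (adjusted p = 0.827) and the libraries of Control lay on both sides of those of HFD. Between HFD+SAMC and HFD the log2 fold change was 0.25 ± 0.82 (adjusted p = 0.947). The interaction of diet and SAMC was 2.22 ± 1.17 (adjusted p = 0.729), and it too includes Control replicate 2.

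The balance of the 2 stearoyl-CoA desaturases turned over between the diets. The ratio of Scd to Scd2 in RPKM, which is per length of transcript, was 1.83 to 8.08 in Control and 4.69 to 20.0 in Control+SAMC. It was 0.0552 to 0.658 in HFD and 0.0259 to 0.163 in HFD+SAMC. Scd was the more abundant isoform in all 6 libraries of the normal diets and Scd2 in all 6 of the high fat diets. These ratios are descriptions and were not tested.

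Fads1, the delta-5 desaturase, was lowest in HFD, and it stood higher in the HFD+SAMC libraries than in the HFD libraries. Its levels were 215, 582 and 259 CPM in Control and 612, 522 and 375 in Control+SAMC. HFD libraries held 112, 112 and 60.7 CPM, and HFD+SAMC libraries 350, 177 and 167 CPM. All 3 HFD libraries lay below all 9 others, and HFD+SAMC lay below Control+SAMC without overlap but overlapped Control. The share of all genes with HFD below all others was not counted. By single comparison, HFD lay wholly below Control for 6.44% of all genes, below Control+SAMC for 8.33% and below HFD+SAMC for 9.4%. In order of the means, Control+SAMC (503 ± 119 CPM, SD, n = 3) and Control (352 ± 200) overlapped, as did Control and HFD+SAMC (231 ± 103), while HFD+SAMC and HFD (94.9 ± 29.6) did not.

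No comparison of Fads1 passed the threshold with edgeR. The log2 fold change was −1.89 ± 0.43 in HFD against Control (edgeR, adjusted p = 0.158), −1.12 ± 0.42 in HFD+SAMC against Control+SAMC (adjusted p = 0.374) and −1.51 ± 0.30 for diet averaged over SAMC (adjusted p = 0.0647). In HFD against Control+SAMC, both of set 2, it was −2.41 ± 0.44 with an adjusted p of 0.0501, at the threshold. DESeq2 gave an adjusted p of 0.000452 in HFD against Control and 1.6e-05 for diet averaged over SAMC. Without Control replicate 1 the averaged diet effect passed with edgeR too (adjusted p = 0.0394), and without Control replicate 2 the log2 fold change of HFD against Control was −1.32.

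For SAMC, Fads1 had a log2 fold change of 1.28 ± 0.42 in HFD+SAMC against HFD (edgeR, adjusted p = 0.334) and 0.51 ± 0.42 in Control+SAMC against Control (adjusted p = 0.752). Averaged over diet it was 0.90 ± 0.30 (adjusted p = 0.25). The interaction was 0.77 ± 0.59 (adjusted p = 0.831), so a difference between the diets in the effect of SAMC was not detectable.

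Fads2, the delta-6 desaturase, had the narrowest spread of any member and group in HFD, with 108, 115 and 114 CPM in its 3 libraries. The other groups held 164, 344 and 171 CPM (Control), 300.5, 243 and 170 (Control+SAMC) and 348, 159 and 147 (HFD+SAMC). All 3 HFD libraries thus lay below all 9 others, as for Fads1, while the other groups overlapped one another, with means of 227 ± 102, 238 ± 65.5 and 218 ± 113 CPM (SD, n = 3) beside 112 ± 3.88 in HFD. The log2 fold change was −1.01 ± 0.37 in HFD against Control (edgeR, adjusted p = 0.357), −1.08 ± 0.37 in HFD against Control+SAMC (adjusted p = 0.246) and 0.96 ± 0.37 in HFD+SAMC against HFD (adjusted p = 0.393), the last being 0.45 without HFD+SAMC replicate 1. In HFD+SAMC against Control+SAMC it was −0.12 ± 0.37 (adjusted p = 0.942), and without Control replicate 2 the value of HFD against Control was −0.58. The interaction was 0.89 ± 0.52 (adjusted p = 0.754), and 0.38 without HFD+SAMC replicate 1. Because of the overlapping genes named above, the Fads2 counts may include reads of other genes.

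The level of Fads1 relative to Fads2 was lower in the high fat libraries than in those of the normal diets. The ratio of Fads1 to Fads2 in RPKM was 1.38 to 1.79 in Control, 2.15 to 2.34 in Control+SAMC, 0.562 to 1.10 in HFD and 1.06 to 1.20 in HFD+SAMC. The lowest ratio on the normal diets was above the highest on the high fat diets, and within the normal diets the Control+SAMC ratios lay above those of Control. As a ratio within a library it is not moved by library scaling, and it was not tested.

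**Figure D2:**
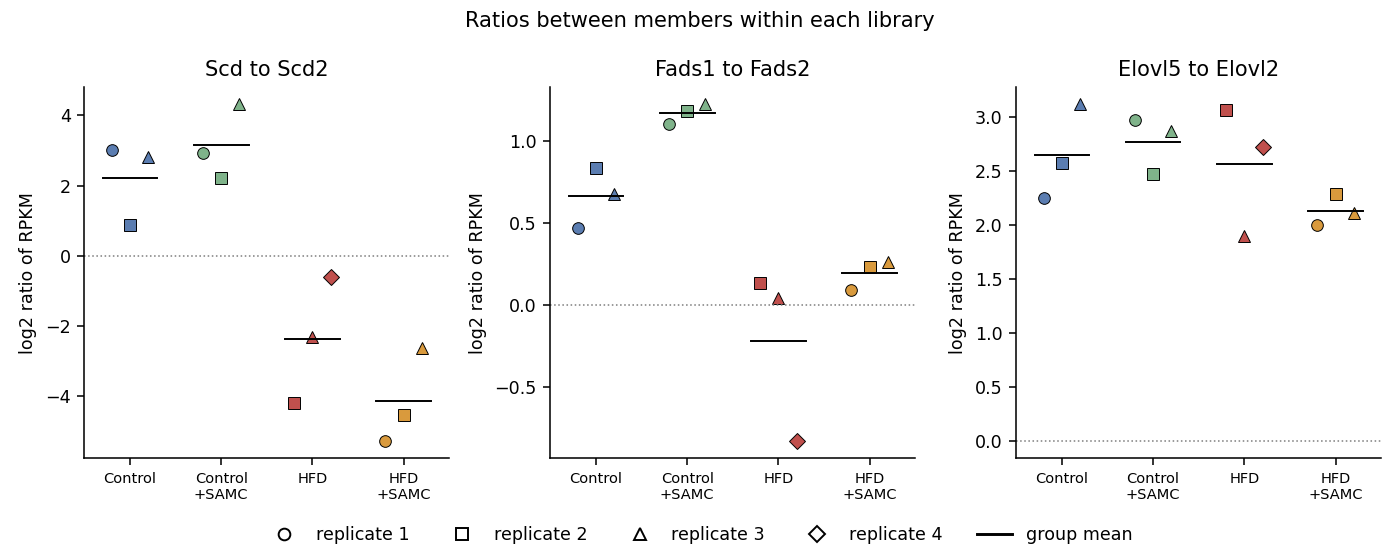
Log2 ratio of RPKM (vertical) between 2 genes in each library, by group (horizontal), for Scd to Scd2, Fads1 to Fads2 and Elovl5 to Elovl2, with a bar at the group mean (n = 3 libraries). The first 2 ratios separate the diets in all 12 libraries, and the third does not. The ratios of Fads2 to Elovl5 and of Elovl6 to Elovl5, which are not drawn, do not separate the diets either. For Fads1 to Fads2 the lowest log2 ratio on the normal diets was 0.47 and the highest on the high fat diets 0.26.

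Elovl5, which lengthens polyunsaturated chains between the steps of Fads2 and Fads1, was the most abundant of the 8 genes per length in every group. Its levels were 381, 576 and 616 CPM in Control, 443, 357 and 386 in Control+SAMC, 512, 327 and 272 in HFD and 365, 315 and 301 in HFD+SAMC. HFD+SAMC lay below Control in all libraries and the other groups overlapped. The log2 fold change was −0.68 ± 0.24 in HFD+SAMC against Control (edgeR, adjusted p = 0.269), −0.50 ± 0.24 in HFD against Control (adjusted p = 0.487) and −0.39 ± 0.17 for diet averaged over SAMC (adjusted p = 0.336).

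Elovl2, which acts on the longer polyunsaturated chains on the way to docosahexaenoic acid, held 112, 134 and 98.7 CPM in Control and 78.6, 89.7 and 73.6 CPM in Control+SAMC. These 2 groups did not overlap, which held for 6.51% of all genes in this direction, and the log2 fold change was −0.51 ± 0.24 (edgeR, adjusted p = 0.517). The HFD libraries held 85.1, 122 and 57.1 CPM and the HFD+SAMC libraries 127, 89.4 and 97.2 CPM, ranges that overlap, with a log2 fold change of 0.25 ± 0.24 (adjusted p = 0.754). Elovl2 gave the smallest unadjusted p of the 8 for the interaction, at 0.76 ± 0.34 on the log2 scale (adjusted p = 0.663) while its fold for diet averaged over SAMC was 0.997 (adjusted p = 0.994).

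Elovl1, the elongase of very long saturated chains, kept within 29.4 to 53.6 CPM over all 12 libraries. Its libraries were 38.9, 53.6 and 38.6 CPM in Control, 53.0, 37.1 and 31.4 in Control+SAMC, 44.1, 33.0 and 35.5 in HFD and 29.4, 42.2 and 30.6 in HFD+SAMC, and all groups overlapped. Its log2 fold change was −0.22 ± 0.22 in HFD against Control (edgeR, adjusted p = 0.761) and −0.23 ± 0.15 for diet averaged over SAMC (adjusted p = 0.544). Taken as deposited RPKM, the log2 ratio of the means of HFD to Control was 0.08 instead, where the median of all tested genes moved by 0.29.

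Elovl6, which makes stearate from palmitate and so supplies Scd, was the least abundant of the 4 elongases per length in each group, with 16 to 278 counts per library. It held 0.838, 6.80 and 2.02 CPM in Control, 5.19, 3.97 and 5.01 in Control+SAMC, 0.295, 4.11 and 0.599 in HFD and 1.14, 2.60 and 1.38 in HFD+SAMC. The HFD+SAMC libraries lay below those of Control+SAMC, while Control and HFD each spanned a wide range. On the log2 scale the fold change was −1.47 ± 0.92 in HFD+SAMC against Control+SAMC (edgeR, adjusted p = 0.619), −0.93 ± 0.92 in HFD against Control (adjusted p = 0.765) and −1.20 ± 0.65 for diet averaged over SAMC (adjusted p = 0.461). Without Control replicate 2 the value of HFD against Control was 0.24. LOC102549542, which may share its reads, had means of 3.39 ± 1.81, 6.32 ± 2.10, 2.79 ± 2.59 and 1.47 ± 0.32 CPM (SD, n = 3) in Control, Control+SAMC, HFD and HFD+SAMC.

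**Figure D3:**
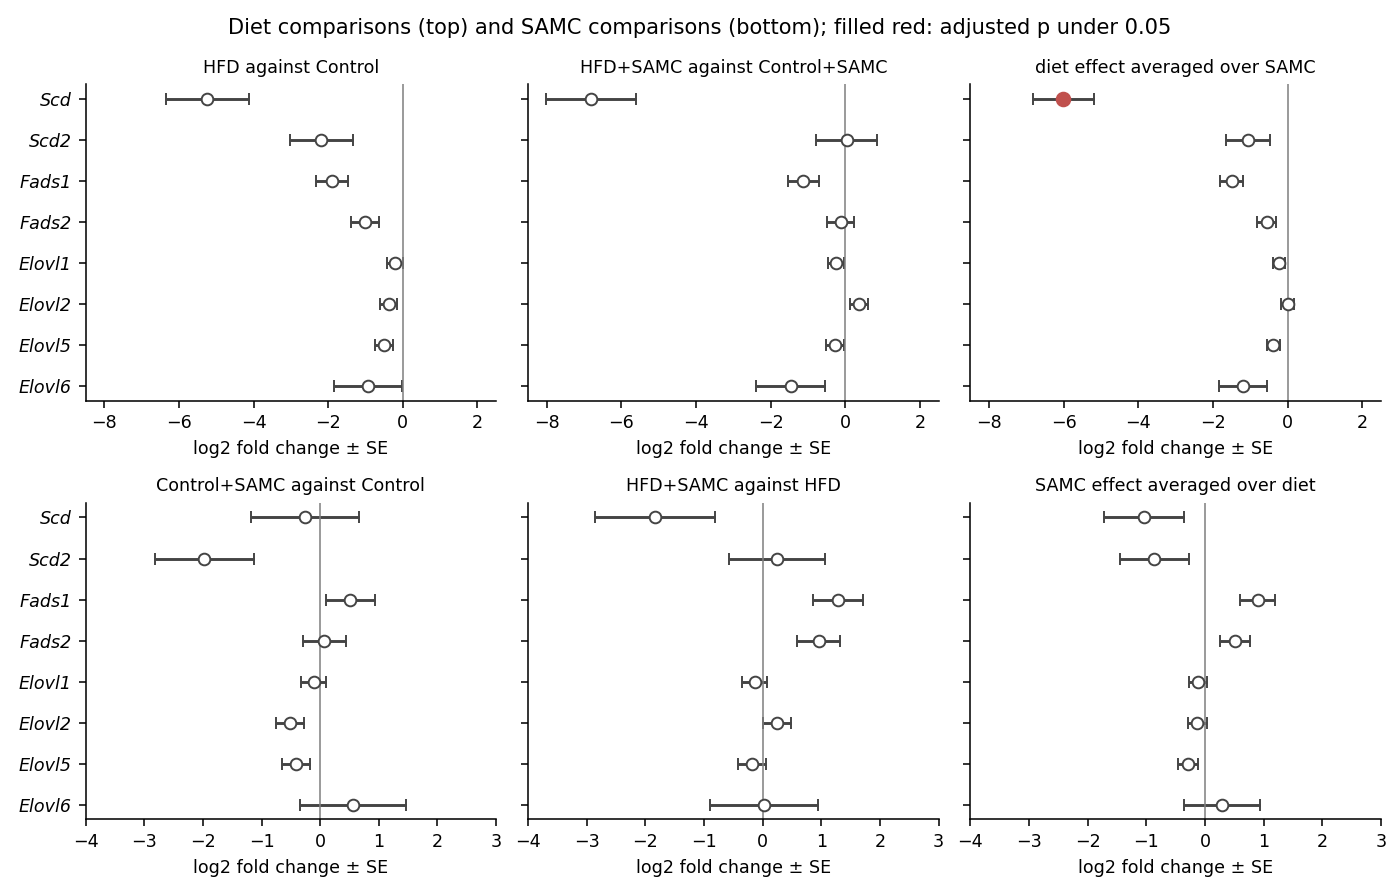
Log2 fold change with its standard error (horizontal) for each gene (vertical) in 3 diet comparisons (top) and 3 SAMC comparisons (bottom), from edgeR over 12 libraries; a red point has an adjusted p under 0.05. Scd for diet averaged over SAMC, at −6.02, is the 1 red point.

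Over the 8 genes, the medians of the log2 fold changes were −0.97 in HFD against Control, −0.26 in HFD+SAMC against Control+SAMC and −0.82 for diet averaged over SAMC, beside medians of all tested genes between −0.00 and 0.01. In HFD against Control 0 of 8 genes passed the threshold with edgeR, as did 0.145% of all genes. At an unadjusted p under 0.05, 4 of 8 were lower (4.76% of all genes), and DESeq2 called 2 (310 of 15287 over all genes). All 8 values in that comparison lay below 0, where 49.3% of all genes lay above 0, though for 7 of 8 genes Control replicate 2 was the highest Control library. In HFD+SAMC against Control+SAMC 0 passed (0.0628% of all genes) and 2 were lower at an unadjusted p under 0.05 (5.26%). DESeq2 called 1 there (248 of 17273 over all genes). Scd, Fads1 and Elovl6 had HFD+SAMC libraries wholly below Control+SAMC, as 8.54% of all genes did.

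For SAMC, the medians over the 8 genes were −0.19 in Control+SAMC against Control and 0.13 in HFD+SAMC against HFD. The median was −0.13 for SAMC averaged over diet and 0.49 for the interaction. In HFD+SAMC against HFD 0 of 8 passed with edgeR (0.0503% of all genes) and 0 with DESeq2, and 2, Fads1 and Fads2, were higher at an unadjusted p under 0.05, as were 5.28% of all genes. Those same genes were the 2 of 8 whose HFD+SAMC libraries lay wholly above the HFD libraries, as 9.4% of all genes did. In Control+SAMC against Control 0 of 8 passed (0.119% of all genes), 0 with DESeq2, and 1, Scd2, was lower at an unadjusted p under 0.05 (4.61%). For SAMC averaged over diet 0 passed (0.22%), 0 with DESeq2, and 1, Fads1, was higher at an unadjusted p under 0.05 (6.31%). For the interaction 0 passed (0.145%), 0 with DESeq2, and 1, Elovl2, had an unadjusted p under 0.05 (3.31% of all genes on the higher side). Comparisons that share a group of libraries, such as HFD against Control and HFD+SAMC against HFD, are not independent of one another.

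In HFD+SAMC against Control 0 of 8 passed with edgeR (0.176% of all genes) and 3, Scd, Scd2 and Elovl5, were lower at an unadjusted p under 0.05 (5.98%), with Fads1 at −0.61 ± 0.42 on the log2 scale (adjusted p = 0.591). DESeq2 called 1 of the 8 there, Scd, and 438 of 16278 over all genes. The libraries of Scd and Elovl5 did not overlap, as 9.49% of all genes on the lower side did not. In HFD against Control+SAMC 0 passed (0.364%) and 3, Scd, Fads1 and Fads2, were lower at an unadjusted p under 0.05 (5.9%). DESeq2 called 2 of the 8, Scd and Fads1, and 534 of 17273 over all genes. Scd, Fads1 and Fads2 were also those whose HFD libraries lay wholly below Control+SAMC, as 8.33% of all genes did, and wholly below Control, as 6.44% did.

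The make-up of the 8 transcripts, as shares of their summed RPKM in a library, followed these levels. Scd made up 4.05% to 9.19% of the sum in Control, 4.54% to 11.7% in Control+SAMC, 0.0484% to 1.18% in HFD and 0.0199% to 0.228% in HFD+SAMC. Fads1 took 17.4% to 27.1%, 28.9% to 36.5%, 9.65% to 13.9% and 20.1% to 26.7% in the same order of groups. Elovl5 took 52% to 65.1% in HFD, above its shares in Control+SAMC (32.1% to 38%) and HFD+SAMC (35.8% to 46.4%) and overlapping those of Control (34.5% to 53%). By mean RPKM the order in both normal diet groups was Elovl5, Fads1, Fads2, Scd, Elovl2, Elovl1, Scd2 and Elovl6. Scd stood next to last in HFD and last in HFD+SAMC, and Fads2 was ahead of Fads1 in HFD alone.

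**Figure D4:**
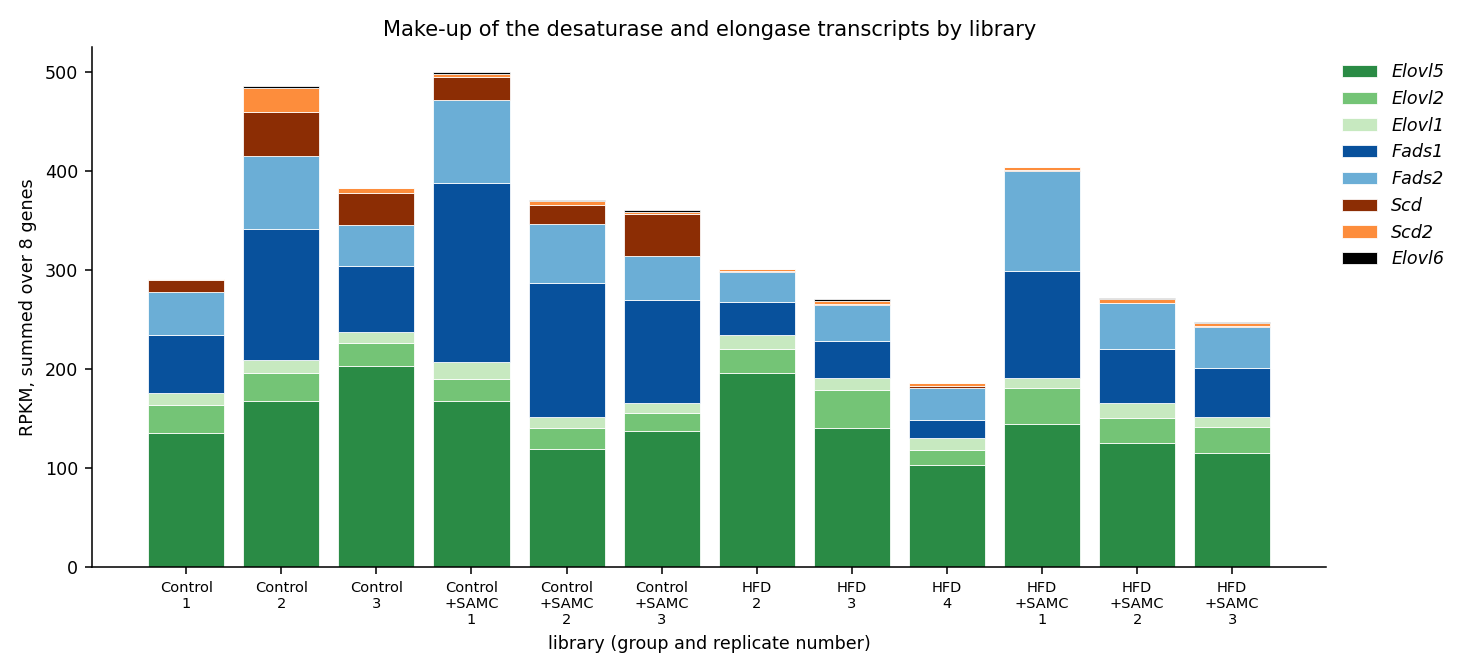
Deposited RPKM of the 8 genes, stacked (vertical), for each library by group and replicate number (horizontal). The lowest sum was 186 (HFD replicate 4) and the highest 499.6 (Control+SAMC replicate 1), with Elovl5 and the Fads genes holding most of it and the dark brown Scd band wide on the normal diets.

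Single libraries stood out across several members. Control replicate 2 was the highest of its group for 7 of 8 genes and Control replicate 1 the lowest for 6, while Control+SAMC replicate 1 was the highest of its group for 5 and HFD+SAMC replicate 1 for 4, including Fads1 and Fads2. Control+SAMC replicate 3 was the lowest of its group for 5, HFD+SAMC replicate 1 for the other 4 genes, and HFD replicates 2 and 4 for 3 each. Control replicate 2 and Control+SAMC replicate 1 are among the 4 libraries with low Fga, and the other 2, HFD replicates 2 and 3, were the highest of their group for 2 and 4 genes and the lowest for 3 and 2. The part of the difference marked by Fga in these levels was not tested.

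In a list of 8 other desaturases and elongases, which does not hold LOC102549542, 5 passed the filter and 0 of these passed the threshold in any of the 9 comparisons, with edgeR or DESeq2, nor were any past an unadjusted p of 0.05. Elovl3 had 0 counts in all libraries, Scd4 at most 1 and Elovl4 at most 3. For diet averaged over SAMC the 3 with the smallest p were the sphingolipid desaturase Degs2 (−0.72 ± 0.60), Fads6 (−0.18 ± 0.19) and Fads3 (0.28 ± 0.48), and the list's median was −0.18.

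Around the 8 genes, fatty acid synthesis and its regulators held genes that fell on the high fat diet. Of 10 synthesis genes, 1 passed the threshold for diet averaged over SAMC, as did 0.421% of all genes. It was the citrate carrier Slc25a1 (−0.72 ± 0.12 on the log2 scale, edgeR, adjusted p = 0.0284). At an unadjusted p under 0.05, 7 were lower (6.29% of all genes), DESeq2 called 7 (522 of 16777 over all genes), and the median was −1.08. Of 18 regulators 1 passed, Insig1, which holds back the processing of sterol regulatory element binding proteins (−2.95 ± 0.45, edgeR, adjusted p = 0.0246). Among the 18, 6 were lower at an unadjusted p under 0.05, DESeq2 called 3 and the median was −0.07. Insig1 levels were 81.4 to 536 CPM in Control, 353 to 463 in Control+SAMC, 20.5 to 29.9 in HFD and 52.0 to 77.7 in HFD+SAMC. The HFD libraries thus lay below all others, as for Fads1 and Fads2, a pattern that was not counted over all genes. Another 3 genes were added for their roles after their values were seen and did not pass: the fatty acid synthase Fasn (−2.29 ± 0.43, adjusted p = 0.0567), Srebf1 (−0.99 ± 0.47, adjusted p = 0.397) and Srebf2 (−0.80 ± 0.17, adjusted p = 0.0792).

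Among other steps of fatty acid handling, 1 gene passed. Of 10 peroxisomal chain shortening genes measured, 1 rose for diet averaged over SAMC, 4 were higher at an unadjusted p under 0.05 and DESeq2 called 4. The gene that passed with edgeR was the bifunctional enzyme Ehhadh (1.30 ± 0.19, edgeR, adjusted p = 0.0134), beside a list median of 0.14. Of the 10 genes of the remaining elongation steps and their electron supply 0 passed, 3 were lower at an unadjusted p under 0.05 (6.29% of all genes), DESeq2 called 1 and the median was −0.21. The smallest p was that of the enoyl-CoA reductase Tecr (−0.51 ± 0.15, adjusted p = 0.163), followed by Cyb5b (−0.67 ± 0.27) and Cyb5a (−0.30 ± 0.14). In the acyl-CoA activation and phospholipid acylation list 0 of 12 passed with edgeR, 5 had an unadjusted p under 0.05 (4 lower, 1 higher) and DESeq2 called 3, led by Acsl5 (−0.59 ± 0.12, adjusted p = 0.0619), Acsl4 (−0.50 ± 0.13) and Acsl3 (−1.44 ± 0.38). Among LXR targets 0 of 8 passed with edgeR or DESeq2, 5 had an unadjusted p under 0.05 (3 higher, 2 lower) and the median was 0.30, with Lpcat3 at −0.39 ± 0.11, Abcg1 at 0.40 ± 0.15 and Abcg5 at 0.96 ± 0.36. For diet averaged over SAMC, the share of all genes past that unadjusted p was counted on the lower side only. The counts of higher genes therefore have no share beside them.

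**Figure D5:**
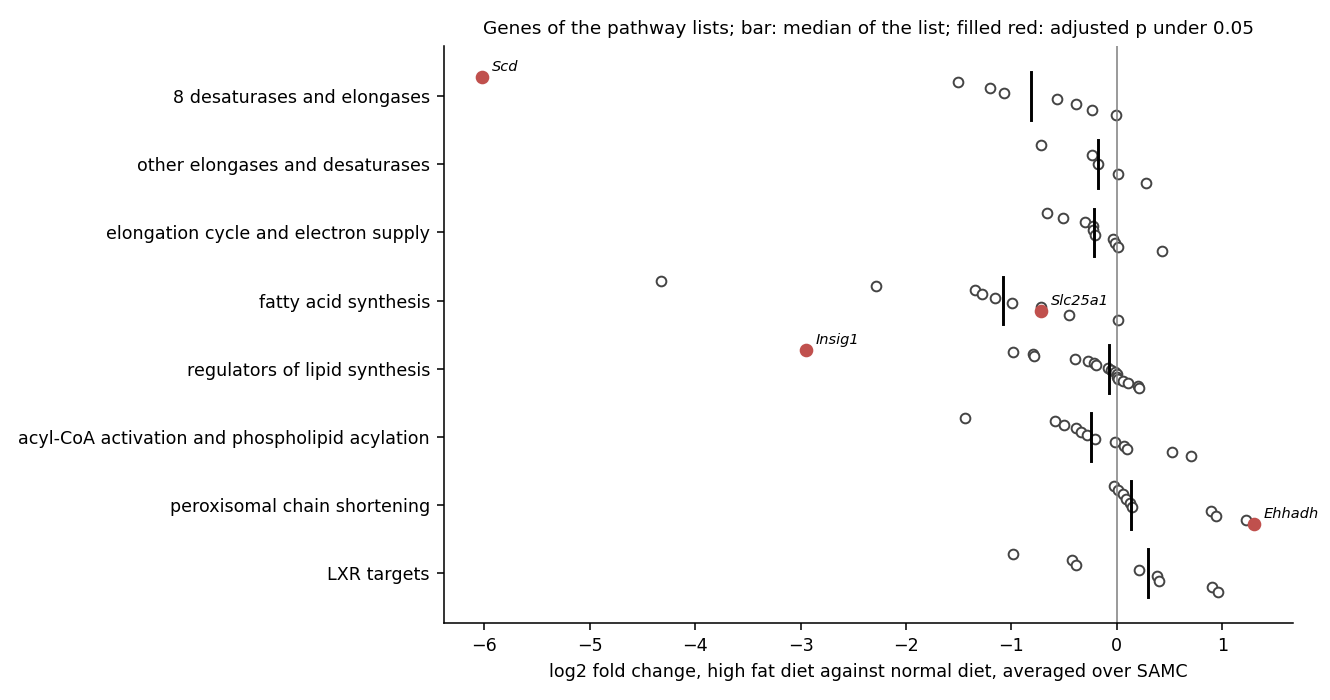
Log2 fold change of the high fat diet averaged over SAMC (horizontal) for each tested gene of 8 lists (vertical), with a bar at the list's median; red points have an adjusted p under 0.05 (edgeR, 12 libraries). Scd, Slc25a1, Insig1 and Ehhadh are red, and the fatty acid synthesis list has the lowest median, −1.08.

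For SAMC on the high fat diet, 0 of the 70 tested genes of these 7 lists passed the threshold with edgeR and 13 had an unadjusted p under 0.05. The share of all genes past that unadjusted p on both sides together was not counted. DESeq2 called 3 of them (Abcd2, Abcg5 and Abcg8), and 234 of 16777 over all genes. The smallest p was that of Abcd2, a peroxisomal fatty acid transporter (2.07 ± 0.36, adjusted p = 0.0689). The 10 genes of the elongation steps all had values above 0, as did 50.5% of all genes. These genes were measured in the same libraries, so their signs are not independent of one another. Their median was 0.27 beside 0.00 for all genes, with 2 higher at an unadjusted p under 0.05 (5.28% of all genes), led by Tecr (0.59 ± 0.21, adjusted p = 0.358), Cyb5r1 (0.59 ± 0.25) and Hacd3 (0.28 ± 0.16). In the regulator list, Srebf2 stood at 0.75 ± 0.24 (adjusted p = 0.32), Insig2 at −0.80 ± 0.28 and Ppargc1a at 0.84 ± 0.35. The sterol exporters Abcg8 (−2.51 ± 0.62, adjusted p = 0.244) and Abcg5 (−1.87 ± 0.52, adjusted p = 0.269) had the smallest p of the LXR targets, followed by Abcg1 (−0.23 ± 0.21). In fatty acid synthesis (median 0.05) these were Slc25a1 (0.50 ± 0.17), Thrsp (−0.69 ± 0.28) and Acacb (0.98 ± 0.51). In the acylation list (median −0.08) they were Acsl5 (−0.45 ± 0.17), Lpcat2 (−1.09 ± 0.44) and Acsl1 (−0.62 ± 0.34). After Abcd2, the peroxisomal list (median −0.04) held Ehhadh (0.61 ± 0.27) and Abcd3 (−0.42 ± 0.21). Among the other desaturases and elongases they were Fads6 (0.25 ± 0.28), Degs1 (0.10 ± 0.14) and Degs2 (0.54 ± 0.87).

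The genes whose levels ran most alike with each member over the 12 libraries were searched among 10071 genes by Pearson's r of log2 CPM, as a description that the shared groups and libraries enter. Fads1 ran most alike with Leng1 (r = 0.965, Spearman's rho = 0.958) and then with Fdps (r = 0.956, rho = 0.951) and Sqle (r = 0.951, rho = 0.937), enzymes of cholesterol synthesis. For Scd these were Ccdc174 (r = 0.929, rho = 0.790), Pdk1 (r = 0.916, rho = 0.888) and Mapk6 (r = 0.906, rho = 0.790), and with group means removed the r of Mapk6 was −0.087. Elovl6 ran with Mid1ip1 (r = 0.910, rho = 0.923), which activates acetyl-CoA carboxylase, with Acat2 (r = 0.891, rho = 0.916) and with Ankrd13a (r = 0.875, rho = 0.867). Fads2 ran with Zfp385a (r = 0.879, rho = 0.790) and Atg9a (r = 0.878, rho = 0.874).

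Among the remaining members, Scd2 ran with Kdm4b (r = 0.925, rho = 0.566), Gamt (r = 0.900, rho = 0.776) and Tmem170b (r = 0.897, rho = 0.755). Control replicate 2 held 155 CPM of Scd2 and the other libraries at most 25.5, so that library weighs heavily in these r. The r without it were not computed. Elovl5 ran with Zdhhc6 (r = 0.941, rho = 0.867), Bche (r = 0.914, rho = 0.790) and A1bg (r = 0.891, rho = 0.902), and Elovl1 with Keap1 (r = 0.912, rho = 0.895), Lman2 (r = 0.899, rho = 0.874) and Slc45a3 (r = 0.898, rho = 0.853). Elovl2 had the weakest likeness of the 8, with Endog (r = 0.810, rho = 0.811), Irx1 (r = 0.809, rho = 0.769) and Stab1 (r = 0.788, rho = 0.811). No gene of the 8 was among the searched genes.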

How the data were processed

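RNA was measured in 12 rat liver libraries, with groups taken from the treatment labels. Per the labels' protocols, ribosomal RNA was removed, and the authors aligned reads with HISAT2 and made the deposited count per gene with HTSeq; Trimmomatic 0.36 and FastQC are named in the submitters' processing notes. Build, annotation and strand setting: not given in the sources used here. Deposited RPKM values matched counts divided by gene length and by library total (tolerance 1e-06, relative) except in 1 gene. Here, edgeR 4.0.16 (R 4.3.3; TMM scaling, filterByExpr, robust quasi-likelihood, two-sided) was fitted to all 12 libraries with 8 residual degrees of freedom in 9 comparisons, with Benjamini-Hochberg adjustment over 15916 genes and a threshold of 0.05; DESeq2 1.42.0 was an alternative. The tests were checked on simulated data, in which all genes had the same dispersion and only HFD held changes. The simulation was not matched to Scd, Scd2 and Elovl6, whose SDs within groups were 1.37, 1.13 and 1.27 on the log2 scale. The 8 genes and all lists were chosen with earlier results of these data known. Named from each list were genes past the threshold, otherwise the 3 with the smallest p, and for likeness the 3 genes of highest r with mean log2 CPM of at least 1, of which 1 is not reported here.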

Additional observations from a re-analysis of the deposited data

How the results depend on the processing

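Of 1059 alternative values for 60 results on the 8 genes (scaling by DESeq2 size factors, other filters on low counts, DESeq2, only the groups compared, the replicate block, and each library left out), 1009 kept their direction and side of the threshold, 17 newly passed it, 3 lost it and 30 changed sign. Some genes are not among the 60 in HFD+SAMC against Control, HFD against Control+SAMC and the interaction. Of these, Fads2 and Elovl6 changed sign in HFD+SAMC against Control, and Elovl1 and Elovl2 kept it. In HFD against Control+SAMC, Scd2, Elovl1, Elovl2 and Elovl5 changed sign and Elovl6 kept it. For the interaction, Elovl1 and Elovl6 (−1.71 to 1.37 on the log2 scale) changed sign and Elovl5 kept it. With DESeq2, 2 of the 8 genes passed in HFD against Control, 1 in HFD+SAMC against Control+SAMC, 1 in HFD+SAMC against Control, 2 in HFD against Control+SAMC and 2 for diet averaged over SAMC. With a filter of at least 1 CPM in 3 libraries, 1 gene passed in HFD+SAMC against Control (Scd) and 1 in HFD against Control+SAMC (Fads1), and with only the groups compared 1 passed in the latter (Fads1). Leaving out 1 library gave 0 to 1 genes in HFD+SAMC against Control, 0 to 1 in HFD against Control+SAMC and 0 to 2 for diet averaged over SAMC. The cause was not tested, except that fewer libraries give less precision.

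Over the libraries left out in turn, the log2 fold change ran from −2.84 to 0.24 for Elovl6 in HFD against Control. In HFD+SAMC against HFD it ran from −0.36 to 0.13 for Elovl5 and from −0.47 to 1.93 for Elovl6. In Control+SAMC against Control it ran from −0.69 to 0.28 for Scd, from −0.14 to 0.50 for Fads2 and from −0.35 to 0.06 for Elovl1. In HFD+SAMC against Control+SAMC it ran from −0.17 to 0.36 for Scd2 and from −0.63 to 0.10 for Fads2. Elovl2 ran from −0.16 to 0.11 for diet averaged over SAMC and from −0.25 to 0.02 for SAMC averaged over diet, and Scd2 from −1.13 to 0.10 for the latter. With at least 1 CPM in 3 libraries, Elovl2 for diet averaged over SAMC was 0.00. As deposited RPKM, the log2 ratio of Elovl1 in HFD to Control was 0.08, where the median of all genes moved by 0.29.

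Replicate numbers do not pair the samples: deviations of 15 same-numbered pairs had correlations of −0.187 to 0.216 (2 over 0.1), and 2 of 12 libraries correlated best with their own number. With the number as a replicate block, 1 member passed in HFD against Control, 1 in HFD+SAMC against Control and 1 in HFD against Control+SAMC (Scd each time), and Elovl2 and Elovl6 in HFD+SAMC against HFD were −0.04 and −0.17, Elovl2 for diet averaged over SAMC 0.13 and Scd for the interaction 0.14. Number 4 holds HFD replicate 4 alone, so the block in effect leaves that library out. It had the highest Scd of its group (10.1 CPM). In HFD against Control the log2 fold change of Scd was −7.27 with the block and −6.74 without that library.

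Counts over all genes depended strongly on the test. DESeq2 called 310 genes in HFD against Control (edgeR 23), 234 in HFD+SAMC against HFD (8), 203 in Control+SAMC against Control (19), 248 in HFD+SAMC against Control+SAMC (10), 438 in HFD+SAMC against Control (28), 534 in HFD against Control+SAMC (58), 522 for diet (67) and 399 for SAMC (35) averaged, and 119 for the interaction (23). Over libraries left out in turn, edgeR called 4 to 53 genes in HFD against Control, 1 to 27 in HFD+SAMC against HFD, 3 to 23 in Control+SAMC against Control, 1 to 45 in HFD+SAMC against Control+SAMC, 7 to 53 in HFD+SAMC against Control, 5 to 140 in HFD against Control+SAMC, 30 to 130 for diet and 13 to 68 for SAMC averaged, and 7 to 19 for the interaction. Other edgeR settings that moved a count over 1.5 times were no filter (19 genes in HFD+SAMC against HFD, 21 in HFD+SAMC against Control+SAMC, 61 in HFD+SAMC against Control, 67 for SAMC averaged), at least 1 CPM in 3 libraries (45 in HFD+SAMC against Control) and only the groups compared (4 in HFD against Control, 23 in HFD+SAMC against HFD, 5 in Control+SAMC against Control, 44 in HFD+SAMC against Control+SAMC). The replicate block gave 6 in Control+SAMC against Control, 2 in HFD+SAMC against Control+SAMC, 10 for SAMC averaged and 9 for the interaction. Depth limits Scd and Elovl6 on the high fat diets, where a library can hold as few as 23 and 16 counts of them.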
